A study of Neurospora crassa with 6 samples.

Results

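Cryptochrome, phytochrome and opsin genes of the filamentous fungus Neurospora crassa were examined in a mutant of the clock gene prd-2 (period-2) and in its control. The 5 genes were taken by locus tag from a table of 9730 genes: cry (NCU00582), phy-1 (NCU04834), phy-2 (NCU05790), nop-1 (NCU10055) and orp-1 (NCU01735). RefSeq lists the first 4 symbols and none for NCU01735, for which orp-1 (opsin-related protein) is the name used with this locus. All 5 rows were found. Of the 5, 4 reached the minimum mean level for the test, and phy-2 did not.

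RNA was sequenced from 6 liquid cultures, 3 per strain. The control strain, 328-4, carries ras-1bd and is of mating type A (MAT A). The mutant strain, 1810, carries ras-1bd and prd-2::barR, a disruption of prd-2 by a resistance marker, and is also MAT A. The ras-1bd allele, shared by both strains, makes the daily rhythm of spore formation visible in culture. Growth was for 48 h at 25 °C in shaken Bird medium with 1.8% glucose under constant light, so every value is a level in the light, with no dark culture and no time course beside it. Each genotype was 1 strain. Any strain difference besides prd-2 cannot be told apart from the mutation, and the p-values measure the spread between cultures.

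Besides the blue-light receptors of the White Collar complex and VVD, this fungus has genes for several further classes of light sensor. Cryptochromes are flavin-binding blue-light proteins related to the photolyases that repair DNA with light. CRY belongs to the DASH class, and its gene is induced by light through the White Collar complex. Phytochromes hold a bilin chromophore that switches between red- and far-red-absorbing forms, and in fungi they carry a histidine kinase and a response regulator domain. Opsins are membrane proteins that bind retinal, a product of carotenoid cleavage. NOP-1 is such an opsin, and its gene has been linked to asexual spore development. Fungal opsin-related proteins resemble opsins but lack the lysine to which retinal is attached.

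Levels are in FPKM, which gives fragments per kilobase of a transcript relative to the size of the library and can be compared between genes because it is per length. Summed FPKM per culture lay between 657467 and 688885, and the deposited table holds no fragment counts. Changes are log2 fold changes on the log2(FPKM + 1) scale, mutant minus control, from limma fitted to the 7797 genes with a mean of at least 1 FPKM. A gene is called when its Benjamini-Hochberg adjusted p is under 0.05. As a check of the labels, prd-2 (NCU01019) itself stood at 26.2 ± 1.31 FPKM in control and 6.78 ± 0.784 FPKM in mutant cultures (SD, n = 3 each), at a locus annotated as overlapping NCU01021.

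In the mutant, the opsin gene nop-1 and the cryptochrome gene cry were lower, and no member was called higher. The level of nop-1 was 43.3% and that of cry 59.7% of the control mean. Neither the phytochrome genes nor orp-1 passed the test. Thus 2 of the 4 members tested were called, where 47.8% of all tested genes were, so the share of members called was near that of the whole table. Both were among the 23.8% of tested genes called lower, and 24.0% were called higher. Among called genes the median size of change was 0.43 log2 units, which nop-1 and cry exceeded. In bulk cultures, fewer cells of a type that expresses a gene and less RNA per cell cannot be told apart.

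The plot of levels by culture shows the range that these genes cover. In the controls the order was cry, orp-1, nop-1, phy-1 and phy-2, from 102 down to 0.899 FPKM, a 113-fold range. No neighbours in this order overlapped in the controls: the means differed 1.69-fold between cry and orp-1, 2.10-fold between orp-1 and nop-1, 8.49-fold between nop-1 and phy-1 and 3.76-fold between phy-1 and phy-2. In the mutants orp-1 came first, at 68.4 FPKM, and cry second, at 60.6 FPKM, and the ranges of these 2 genes overlapped. The order of the others was as in the controls, again without overlap. By control level, cry ranked 1062 of 9730 genes and phy-2 ranked 7890.

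**Figure D1:**
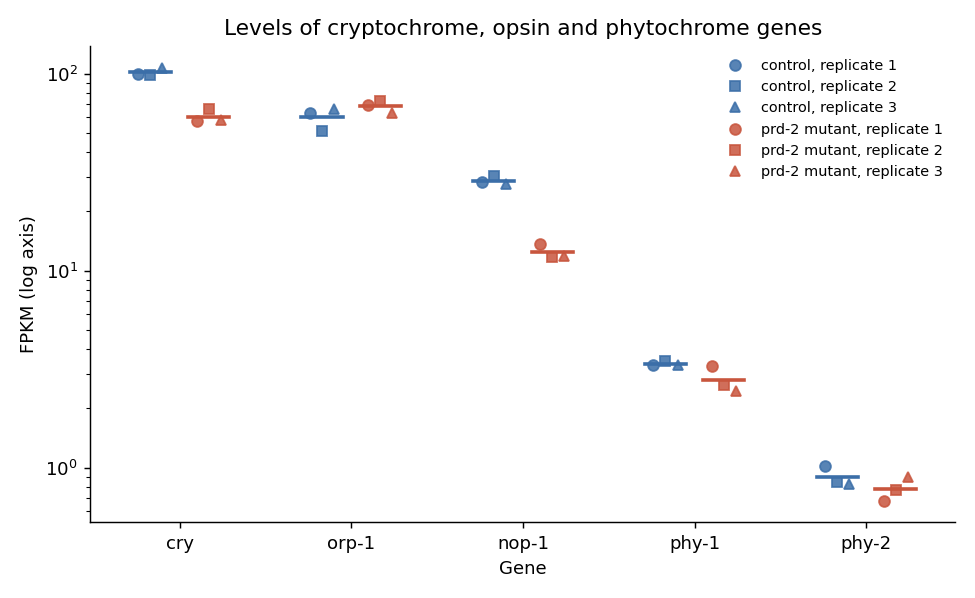
FPKM of each gene on a log axis in each culture (points, shaped by replicate number) with the mean of each strain (lines). The mutant points of cry and nop-1 lie below all control points, those of orp-1 and phy-2 overlap the controls, and phy-1 of mutant replicate 1 (3.28 FPKM) lies just under the lowest control (3.34 FPKM).

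Cryptochrome was the most abundant of the 5 transcripts in the control and was lower in all 3 mutant cultures. The gene cry measured 99.1, 98.1 and 107 FPKM in control replicates 1 to 3 and 57.6, 66.2 and 58.1 FPKM in mutant replicates 1 to 3. The highest mutant culture thus stood well below the lowest control. The means were 102 ± 5.11 and 60.6 ± 4.84 FPKM (SD, n = 3 each). This was a log2 fold change of -0.74 (95% interval -0.90 to -0.57, SE 0.071, limma adjusted p = 0.000222). Of the tested genes, 614 (7.87%) were called lower with a larger fall. The level rank of cry moved from 1062 in the controls to 1836 in the mutants. The annotated span of cry overlaps that of NCU00583, which was listed at 0 in all 6 cultures.

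The photolyase gene phr (NCU08626), whose product belongs to the same protein family, was lower too, at 30.3 ± 0.392 FPKM in mutant against 35.8 ± 2.07 FPKM in control cultures (SD, n = 3 each). Its change was -0.23 log2 units (SE 0.057, limma adjusted p = 0.0123). Within a culture, cry stood at 2.85, 2.85 and 2.81 times the level of phr in control replicates 1 to 3 and at 1.87, 2.20 and 1.93 times in mutant replicates 1 to 3. The ratio was nearly the same in all controls and lower in every mutant culture. On the log2(FPKM + 1) scale it differed by -0.50 between the strains (exact two-sided permutation test over 3 and 3 cultures, p = 0.1, the smallest this design allows). The comparison was chosen after the values were seen and is 1 of 5 such ratios, and the adjusted value over these 5 was 0.125.

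The opsin gene nop-1 showed the larger of the 2 falls. It measured 28.3, 30.3 and 27.4 FPKM in control replicates 1 to 3 and 13.6, 11.8 and 11.9 FPKM in mutant replicates 1 to 3. The highest mutant culture, at 13.6 FPKM, lay far below the lowest control, at 27.4 FPKM. The means were 28.7 ± 1.44 and 12.4 ± 1.01 FPKM (SD, n = 3 each), which gives a log2 fold change of -1.15 (95% interval -1.31 to -0.98, SE 0.071, limma adjusted p = 3.66e-05). Of the tested genes, 319 (4.09%) were called lower with a larger fall. In the order of levels over all 9730 genes, nop-1 moved from rank 3330 to rank 5201.

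Because nop-1 has been linked to spore development, genes that mark conidiation were read beside it. Of 5 such markers, 1 was called higher and 2 lower, a called share of 60%, beside 47.8% of all tested genes. The gene con-6 (NCU08769) rose from 19.5 ± 2.69 to 117 ± 22.2 FPKM (log2 fold change 2.51, limma adjusted p = 3.61e-05), although its annotated span overlaps that of NCU08768. In contrast, con-8 (NCU09235) fell from 1121 ± 83.9 to 590 ± 38.6 FPKM (log2 fold change -0.92, limma adjusted p = 0.000127), and con-10 (NCU07325) from 42.0 ± 9.02 to 28.5 ± 3.65 FPKM (log2 fold change -0.53, limma adjusted p = 0.0355; SD, n = 3 each). The regulator fl (NCU08726; log2 fold change -0.28, limma adjusted p = 0.101) and the hydrophobin gene eas (NCU08457; 0.52, limma adjusted p = 0.378) did not pass. The call of con-10 was lost without control replicate 1 or 2 or any 1 mutant culture (limma adjusted p from 0.0531 to 0.114). Without mutant replicate 1, eas turned to -0.07 and fl passed (-0.39, limma adjusted p = 0.0355).

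The markers therefore did not move one way. Their summed level was 1814 to 1992 FPKM in control cultures and 1356 to 3192 FPKM in mutant cultures, where eas measured 2382 FPKM in mutant replicate 1 and 745 and 634 FPKM in the other two. In that culture nop-1 was at 13.6 FPKM, the highest of the 3 mutant values. Among the controls, eas was highest in replicate 3, at 833 FPKM, where nop-1 was lowest, at 27.4 FPKM. No marker was at 0 in any culture. The part of conidiation in the fall of nop-1 was not tested.

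The opsin-related gene orp-1 did not follow nop-1. It measured 63.4, 51.3 and 65.9 FPKM in control replicates 1 to 3 and 69.3, 72.7 and 63.3 FPKM in mutant replicates 1 to 3. The strains overlapped, with control replicate 2 lowest and mutant replicate 2 highest. The means were 60.2 ± 7.79 and 68.4 ± 4.76 FPKM (SD, n = 3 each), which gives a log2 fold change of 0.19 (95% interval -0.05 to 0.43, SE 0.102, limma adjusted p = 0.17). Without control replicate 2 it was 0.08 (limma adjusted p = 0.47). The interval leaves room for no change and for a rise of 0.43 log2 units, but not for a fall of the size seen for nop-1.

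Within a culture, orp-1 stood at 2.24, 1.70 and 2.40 times the level of nop-1 in control replicates 1 to 3. In mutant replicates 1 to 3 the ratio was 5.10, 6.18 and 5.31. The opsin pair therefore lay further apart in every mutant culture than in any control. The log2 ratio on the log2(FPKM + 1) scale was higher by 1.33 in the mutant (exact two-sided permutation test over 3 and 3 cultures, p = 0.1, the smallest possible; 0.125 adjusted over the 5 ratios). Leaving out each culture in turn gave 1.19 to 1.43.

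The phytochrome genes were the least abundant members. The level of phy-1 was 3.34, 3.46 and 3.34 FPKM in control replicates 1 to 3 and 3.28, 2.64 and 2.45 FPKM in mutant replicates 1 to 3. All mutant values lay below all control values, as for 29.3% of the tested genes, but mutant replicate 1 missed the lowest control by little. The means were 3.38 ± 0.0732 and 2.79 ± 0.436 FPKM (SD, n = 3 each). With a log2 fold change of -0.21 (95% interval -0.46 to 0.03, SE 0.103, limma adjusted p = 0.127), phy-1 did not pass. Without mutant replicate 1 it was -0.30 and passed (limma adjusted p = 0.0433), and with quantile normalization its sign turned, to 0.05 (limma adjusted p = 0.719).

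The phy-2 transcript was near the limit of the test. Its level was 1.02, 0.846 and 0.826 FPKM in control replicates 1 to 3 and 0.681, 0.773 and 0.892 FPKM in mutant replicates 1 to 3. Only control replicate 1 reached 1 FPKM, and the strains overlapped. The mean over all cultures was below 1 FPKM, so phy-2 was read from the fit without a filter, in which 42.2% of 9047 genes were called. There its change was -0.09 log2 units (95% interval -0.28 to 0.09, SE 0.078, limma adjusted p = 0.388). With quantile normalization the sign turned, to 0.16 (limma adjusted p = 0.11). The log2 scale with 1 FPKM added understates changes at this level, and with 0.1 FPKM added the value was -0.18 (limma adjusted p = 0.446).

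Between the phytochrome genes, phy-1 stood at 3.26, 4.09 and 4.04 times phy-2 in control replicates 1 to 3. In mutant replicates 1 to 3 the ratio was 4.82, 3.42 and 2.75, which spans the control range. The log2 ratio of phy-2 to phy-1 on the log2(FPKM + 1) scale differed by 0.12 between the strains (exact two-sided permutation test over 3 and 3 cultures, p = 0.6). It was 0.01 without mutant replicate 3 and 0.25 without mutant replicate 1. The strains overlapped in this ratio. With 3 and 3 cultures the exact test cannot go below p = 0.1, so it cannot decide whether the phytochrome genes differed in their response.

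**Figure D2:**
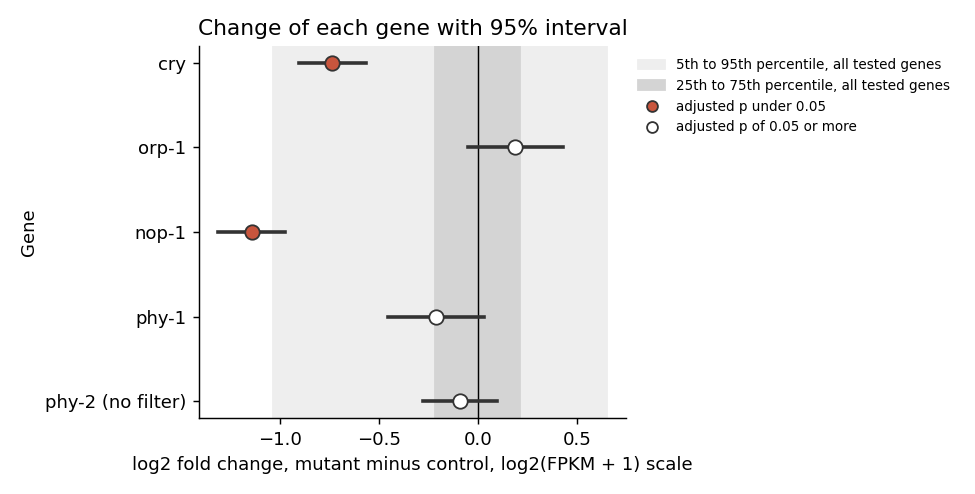
Log2 fold change of each gene (mutant minus control, log2(FPKM + 1) scale) with its 95% interval from limma; filled points are called, and grey bands give percentiles of all tested genes (5th at -1.04 and 95th at 0.65 log2 units; 25th at -0.22 and 75th at 0.21). The point of nop-1 lies beyond the 5th percentile, while those of orp-1 and both phytochrome genes lie within the inner band.

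The summed level of the 5 genes was 145 ± 8.71 FPKM in mutant against 195 ± 10.5 FPKM in control cultures (SD, n = 3 each; exact two-sided permutation test, p = 0.1, the smallest possible). Most of this difference of -49.7 FPKM is that of cry, which went from 102 to 60.6 FPKM, so the sum mainly restates its fall. The sum was not among the ratios adjusted together. The make-up of the sum differed as well. The share of cry was 39.9% to 43.0% in mutant cultures, against 50.8% to 53.3% in control cultures. That of nop-1 was 7.63% to 9.41%, against 13.4% to 16.4%. The share of orp-1 was 46.3% to 48.0% in mutant and 27.9% to 32.5% in control cultures. Shares of a sum depend on each other, so that of orp-1 rises where those of cry and nop-1 fall. The level of orp-1 itself was not called. The phytochrome genes together stayed the smallest part, with 1.63% to 2.27% for phy-1 and 0.403% to 0.653% for phy-2 over all 6 cultures.

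**Figure D3:**
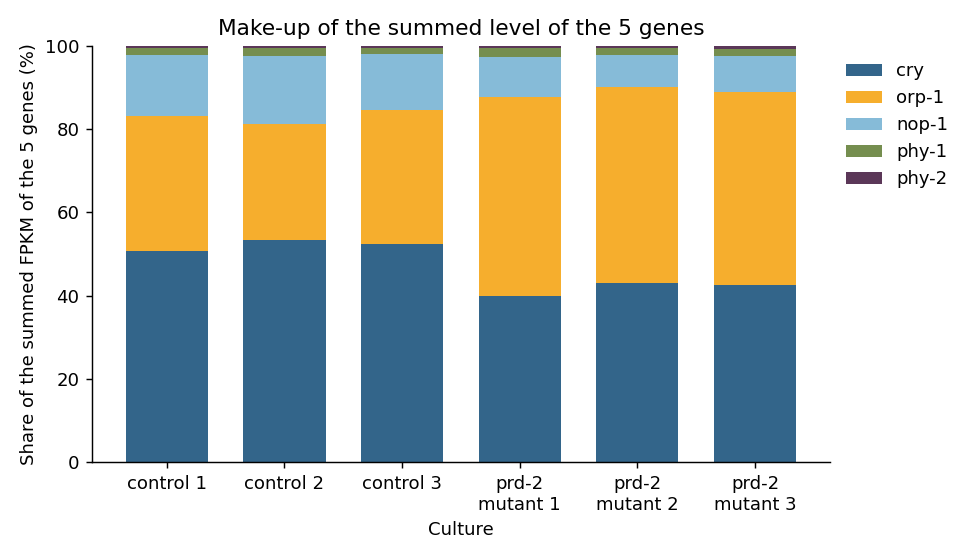
Share of each gene in the summed FPKM of the 5 genes, in percent, for each culture (stacked bars). In the 3 controls cry holds the largest share (50.8% to 53.3%), and in the 3 mutants orp-1 does (46.3% to 48.0%).

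Within a culture cry stood above orp-1 in all 3 controls, by 1.56, 1.91 and 1.63 times, and below it in all 3 mutants, at 0.831, 0.911 and 0.918 times its level. The log2 ratio of cry to orp-1 differed by -0.92 between the strains. The falls of cry and nop-1 were themselves of different size: the log2 ratio of cry to nop-1 was higher by 0.41 in the mutant, with no overlap between the strains. Both differences had p = 0.1 in the exact two-sided permutation test, or 0.125 adjusted over the 5 ratios, and both ratios were chosen after the values were seen.

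Other genes of light signalling were compared as a list of 12, of which 8 were called, 5 lower and 3 higher, with a median change of -0.09 log2 units against 0.01 over all tested genes. As a share this was 66.7%, beside 47.8% of all tested genes. With the TPM scale, or without control replicate 1 or mutant replicate 1 or 2, 6 of the 12 were called. In those 4 settings 3131 to 3540 of 7773 to 7823 tested genes were called. The list's genes for receptors and transcription factors had smaller fold changes than cry and nop-1. Of the White Collar genes, which encode the complex that acts on cry, wc-2 (NCU00902) was lower (log2 fold change -0.34, SE 0.051, limma adjusted p = 0.0015). Neither wc-1 (NCU02356; -0.09, limma adjusted p = 0.191) nor the blue-light receptor gene vvd (NCU03967; -0.05, limma adjusted p = 0.481) passed.

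The light-induced gene bli-4 (NCU08699) had the largest fall in that list, from 18.5 ± 2.78 to 9.69 ± 0.837 FPKM (SD, n = 3 each; log2 fold change -0.86, limma adjusted p = 0.000872), between those of cry and nop-1. The transcription factor gene adv-1 (NCU07392; -0.40, limma adjusted p = 0.00134) and the clock gene frq (NCU02265; -0.32, limma adjusted p = 0.00147) were lower by less. The repressor gene csp-1 (NCU02713; 0.30, limma adjusted p = 0.00547) was higher. Light-responsive genes thus moved in both directions in cultures that had all been kept in light.

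The carotenoid pathway supplies the precursor of retinal, the chromophore of opsins, although the genes listed include late steps and do not measure retinal supply. Of 5 listed, 2 were called higher and 1 lower (60% called, beside 47.8% of all tested genes), with a median of 0.23 log2 units. The phytoene desaturase gene al-1 (NCU00552) rose from 121 ± 17.7 to 245 ± 17.8 FPKM (log2 fold change 1.02, SE 0.112, limma adjusted p = 0.000387), a change about as large as that of nop-1 and opposite in sign. The gene ylo-1 (NCU04013), for an aldehyde dehydrogenase late in the pathway, rose as well (0.36, limma adjusted p = 0.00251). By contrast, al-2 (NCU00585), which encodes phytoene synthase, fell from 234 ± 14.0 to 194 ± 6.55 FPKM (-0.27, limma adjusted p = 0.0096; SD, n = 3 each). The torulene-cleaving oxygenase gene cao-2 (NCU11424; 0.12, limma adjusted p = 0.0936) and al-3 (NCU01427; 0.23, limma adjusted p = 0.0565), whose annotated span overlaps that of NCU01426, did not pass.

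The phytochromes were set beside 12 other genes listed as histidine kinases or phosphorelay proteins, 5 of which carry no symbol in RefSeq. Of these 12, 3 were called (25.0%, beside 47.8% of all tested genes), 2 higher and 1 lower, with a median of 0.03 log2 units. The kinase genes dcc-1 (NCU00939; 0.36, limma adjusted p = 0.00927) and nik-2 (NCU01833; 0.26, limma adjusted p = 0.0123) were higher. The response regulator gene rrg-1 (NCU01895; -0.17, limma adjusted p = 0.0399) was lower, a call lost when any 1 culture was left out (limma adjusted p from 0.0508 to 0.119) and with the replicate block (0.0889). Like phy-1 and phy-2, the other 9 did not pass.

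The velvet complex is a nuclear regulator that binds a phytochrome in the fungus Aspergillus nidulans. Of 4 genes listed for it, 2 were called (50%, beside 47.8% of all tested genes), both lower. They were NCU05964 (-0.79, limma adjusted p = 0.00126), whose annotated span overlaps that of NCU05965, and NCU00646 (-0.70, limma adjusted p = 0.00128), neither with a symbol in RefSeq. The velvet gene ve-1 (NCU01731) did not pass (-0.11, limma adjusted p = 0.146).

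**Figure D4:**
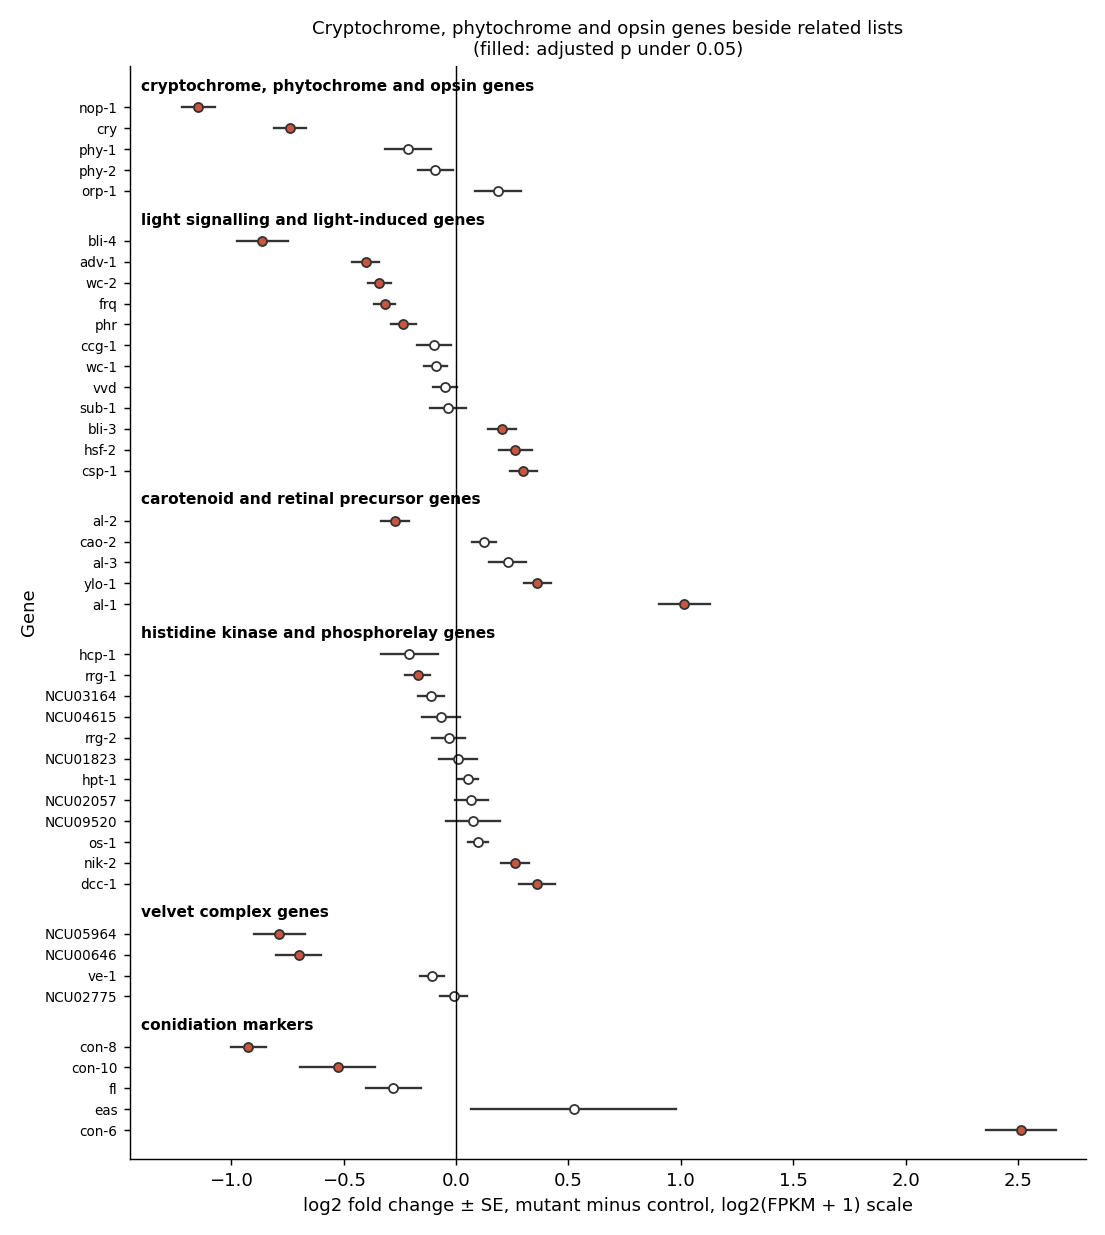
Log2 fold change (mutant minus control, log2(FPKM + 1) scale) with its SE for the 5 genes and for each gene of the lists on light signalling, carotenoids, histidine kinases, the velvet complex and conidiation; filled points are called. Apart from nop-1 (-1.15), cry (-0.74) and bli-4 (-0.86), falls of this size in the plot are those of con-8 (-0.92), NCU05964 (-0.79) and NCU00646 (-0.70).

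For each gene, the 3 genes with a RefSeq symbol whose profile over the 6 cultures was closest were found among 1053 tested genes, by the root-mean-square difference of log2(FPKM + 1) after each gene's own mean was subtracted. For cry these were pyr-4, poli and mim1, with differences of 0.069, 0.069 and 0.071 log2 units. For nop-1 they were pin-c, npd-1 and gh61-9 (0.074, 0.076 and 0.078), whose own changes ran from -1.03 to -1.14. The nearest to orp-1 were acp-1, os-4 and ham-3 (0.065, 0.065 and 0.071). For phy-1 they were stk-6, cac-1 and pod-6 (0.040, 0.049 and 0.053), and for phy-2 rpn-2, pcb-6 and rpt-5 (0.041, 0.043 and 0.049). For cry and nop-1 this likeness is mostly that of the strain difference, and for orp-1 and phy-2 that of small deviations between cultures. For phy-1 it held both. Its change of -0.21 stood beside -0.15, -0.17 and -0.19 for stk-6, cac-1 and pod-6, none of them called.

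The genes next to each member in the RefSeq order were read to see whether its change was shared. On one side of cry, NCU00583 was listed at 0 in all cultures. On its other side NCU00581 fell from 27.5 ± 0.404 to 16.7 ± 0.745 FPKM (SD, n = 3 each; log2 fold change -0.69, limma adjusted p = 8.22e-05), close to the fall of cry. Neither gene beside nop-1 could be tested: NCU10056 was listed at 0 in all 6 cultures, and NCU09726 averaged 0.0123 FPKM over the mutant cultures and was at 0 in the control cultures. A value of exactly 0 in a table without counts can also mean that a locus was not quantified, so the fall of nop-1 could not be compared with that of a gene directly beside it.

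Beside phy-1, NCU04832 was higher (0.45, limma adjusted p = 0.00134) and NCU04835 lower (-0.62, limma adjusted p = 0.000434), so the called genes on its flanks moved apart. Beside phy-2, the abundant NCU05789 fell from 340.3 ± 18.9 to 177 ± 20.6 FPKM (SD, n = 3 each; log2 fold change -0.94, limma adjusted p = 0.000227), while NCU17274, at 0.885 and 2.02 FPKM, did not pass (0.65, limma adjusted p = 0.0679). Beside orp-1, NCU01737 did not pass (0.11, limma adjusted p = 0.166) and NCU01734 was listed at 0.

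**Figure D5:**
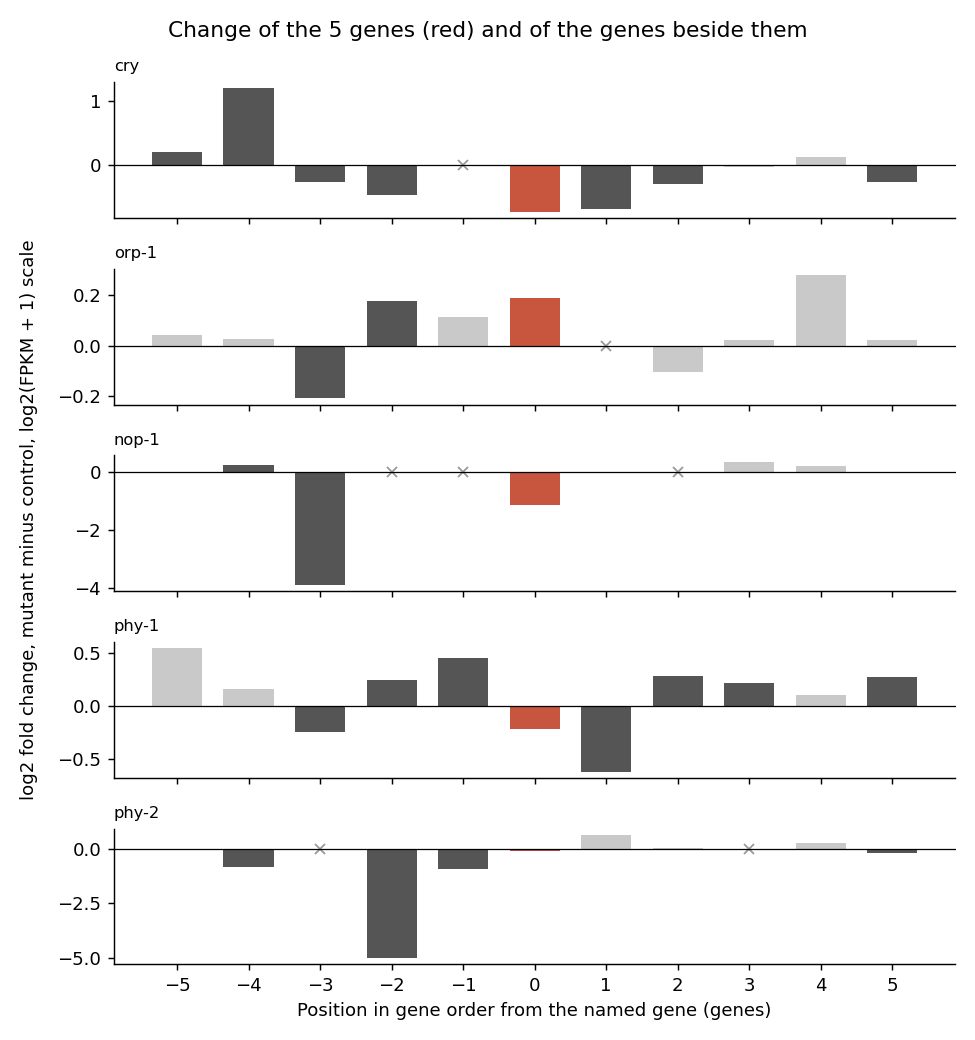
Log2 fold change (mutant minus control, log2(FPKM + 1) scale) of each of the 5 genes (red, position 0) and of up to 5 genes on each side in the RefSeq gene order; dark bars are called, light bars are not, and crosses mark genes listed at 0 in all cultures. Each panel has its own vertical scale. Of the neighbours plotted, 5 were called lower and 2 higher around cry, 4 lower and 0 higher around phy-2, 2 lower and 5 higher around phy-1, and 1 each way around nop-1 and around orp-1, where 23.8% of all tested genes were called lower and 24.0% higher. Neighbours tested numbered 9 for cry, 7 for phy-2, 10 for phy-1, 5 for nop-1 and 9 for orp-1.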

How the data were processed

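The authors deposited 1 table of FPKM values with 1 column per culture. STAR and Cuffnorm are named in the submitters' processing notes, without version or role. Not given in the sources used here are the genome build, annotation, filters and use of strand. Per the labels' protocols, poly(A) RNA was selected and libraries were directional, with paired reads of 150 bp.

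From these values log2(FPKM + 1) was computed, and genes with a mean of at least 1 FPKM over the 6 cultures were kept (7797 of 9730). The strains were compared in R 4.3.3 by limma 3.58.1, with a variance prior that depends on the mean (eBayes, trend), and p-values were adjusted over all tested genes by Benjamini-Hochberg. The fitting code was tested on simulated data. RefSeq's table of assembly NC12 gave symbols, gene order and annotated overlaps, and 9729 locus tags matched. Figures were drawn with matplotlib 3.10.9 in Python 3.11.15. Whether replicates came from separate inoculations is not stated.

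Absolute depth is unknown. Among genes below 0.15 FPKM in every culture, the commonest ratios near 1 to control replicate 1 were 0.96 to 1.132. Such a ratio gives the relative worth of a fragment. Per culture, 10 to 28 of 58 to 80 ratios lay close to the commonest value. Only ratios near 1 were read, so a much different depth would not have shown, and relative depth stays undecided.

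The members and lists were chosen with earlier results of these data known. Named genes were the members, the gene on either side of each, up to 6 called genes per list with the smallest p, wc-1, wc-2, vvd and the al genes, 3 genes of closest profile per member, and prd-2. Outside this rule, eas, fl, cao-2, ve-1, NCU00584, NCU16450, NCU00580, ncw-6, NCU05788 and hgt-1 were named after their values were seen. NCU01735 (as orp-1) and list genes without a RefSeq symbol were placed from knowledge of the fungus. The alternatives dropped 1 culture at a time, added the replicate number as a block, removed the variance trend, changed the scaling (quantile normalization, median centring, TPM scale), changed the filter (a minimum of 5 FPKM, or none) or used a pseudocount of 0.1. Replicate numbers come from the titles.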

Additional observations from a re-analysis of the deposited data

How the results depend on the processing

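The falls of cry and nop-1 passed the threshold in all 14 alternatives. The change of cry ran from -0.81 to -0.70 log2 units (adjusted p from 0.00014 to 0.00255) and that of nop-1 from -1.21 to -1.11 (adjusted p from 3.58e-05 to 0.000904). Quantile normalization turned the sign of phy-1 to 0.048 (adjusted p = 0.719) and of phy-2 to 0.16 (adjusted p = 0.11); the cause was not tested. Leaving out each culture gave -0.30 to -0.15 for phy-1, which passed without mutant replicate 1 only, -0.14 to -0.05 for phy-2 and 0.08 to 0.26 for orp-1. Members called numbered 2, or 3 without mutant replicate 1. With a minimum mean of 5 FPKM neither phytochrome gene gave a value. The numbers of list genes called stayed within 1.5 times those reported.

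With the replicate number as a block the changes had adjusted p-values of 0.00255 (cry), 0.000904 (nop-1), 0.166 (phy-1), 0.239 (orp-1) and 0.481 (phy-2), and no call of a member changed. Same-numbered cultures deviated from their group means with correlations of -0.104, -0.175 and 0.0682 across genes, so the numbers give no sign of pairing.

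Among the named list genes (neighbours and genes of close profile were not rerun) the sole sign change was that of eas, which ran from -0.074 without mutant replicate 1 to 0.88 when another culture was left out. It was not called in any setting. Calls of con-10 and rrg-1 were lost in some settings (rrg-1 with median centring, quantile normalization and the block too), and al-3, fl and ve-1 passed in 1 setting each. With no counts in the table, the spread between cultures is the one measure of error for phy-2.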

Other observations

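Further from the 5 genes, some of their neighbours moved strongly, and these were chosen after their values were seen. Around cry, the genes from al-2 to NCU16450 stand next to each other in the RefSeq order. Apart from NCU00583, which was listed at 0, all of them were called lower: al-2 (-0.27 log2 units), NCU00584 (-0.47, limma adjusted p = 0.000476), cry (-0.74), NCU00581 (-0.69) and NCU16450 (-0.30, limma adjusted p = 0.0015). The gene beyond al-2, ncw-6 (NCU00586), rose from 35.3 ± 0.751 to 82.6 ± 6.47 FPKM (SD, n = 3 each; log2 fold change 1.20, limma adjusted p = 2.37e-05), so the run of falls ended there. Beyond NCU16450, at the other end, NCU00580 did not pass (-0.03, limma adjusted p = 0.819). The ends of the run were thus set by the calls themselves, and 23.8% of all tested genes were called lower.

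Beyond NCU05789, the second gene from phy-2 is NCU05788, with 7.25 ± 3.94 FPKM in mutant against 260.2 ± 122 FPKM in control cultures (SD, n = 3 each; log2 fold change -5.01, limma adjusted p = 0.000145). Beside it, phy-2 stayed below 1.1 FPKM in every culture. The gene hgt-1 (NCU10021) lies the third from nop-1, beyond 2 genes listed at 0, and fell from 23.4 ± 4.72 to 0.614 ± 0.145 FPKM (SD, n = 3 each; log2 fold change -3.90, limma adjusted p = 6.75e-06). With 1 FPKM added, the log2 scale understates this fall, as the mutant level was below 1 FPKM. The mutant mean of hgt-1 was 2.62% of the control mean, and that of NCU05788 was 2.78%. Of the 10 nearest neighbours of nop-1, 3 were listed at 0 in all 6 cultures, more than for any of the other 4 genes.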
